A study of Mus musculus with 2 samples.

Results

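The cells described here are 371 luminal mammary cells from a wild-type mouse library in which genes of an inflammatory programme were detected together. A cell was a member when at least 4 of the 6 genes Tnfaip2, Csf3, Adamts4, Cxcl2, Icam1 and Rnd1 had at least 1 unique molecular identifier (UMI, a tag that marks 1 captured transcript). Only barcodes with at least 500 genes, at least 1000 UMIs and at most 10% mitochondrial UMIs entered, which left 7406 of 8993 barcodes. The members were thus selected on measured UMIs of these genes. Members also had fewer than 5 UMIs per 10000 from Areg, Pgr, Esr1 and Cited1 together, genes of the hormone-sensing luminal lineage. Of the kept cells, 4390 were below that limit and are called receptor-low, and the 371 members were 8.45% of these (95% exact binomial interval 7.64% to 9.31%) and 5.01% of all kept cells. The remaining 4019 receptor-low cells are called the others.

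The study profiled luminal cells sorted from the mammary gland by droplet single-cell RNA sequencing, in mice of the FVB/NJ strain aged 3.5 months. The wild-type library came from Sox9-GFP mice. The comparison library came from Sox9-GFP;C3-TAg mice, which carry in addition a transgene for SV40 T antigen under the rat C3(1) promoter, active in mammary epithelium and in other tissues. Both groups carry the Sox9-GFP reporter, each group is 1 library, and the number of mice behind a library and the gates of the sort were not given in the sources used here. With 1 library per group there is no replicate check, so no test between conditions was possible, and every interval below is a 95% exact interval for counting error only.

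Luminal progenitors are the hormone receptor-negative cells of the mammary ductal lining from which milk-secreting alveolar cells arise. NF-kB is a family of transcription factors held in the cytoplasm by IkB proteins, and signals from cytokine and pattern receptors release it to the nucleus. Its known targets include chemokines that draw neutrophils and monocytes, adhesion molecules, and its own inhibitors, which close a feedback loop.

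The 6 genes of the rule describe the cells and carry no finding. Csf3, the neutrophil growth factor G-CSF, was found in 99.2% of members, against 46.2% of the others. Icam1, an adhesion molecule for leukocytes, was found in 96.2% of members and Tnfaip2, a TNF-induced gene, in 94.3%. Adamts4, a protease that cleaves proteoglycans, was found in 57.4%, Cxcl2, a neutrophil chemokine, in 49.3% and Rnd1, a small GTPase, in 45.6%. Membership was therefore mostly Csf3, Icam1 and Tnfaip2 together with at least 1 of the other 3 genes. Just outside the limit lay 539 cells with exactly 3 of the 6 genes, in which Csf3 stood at 1729 CPM (UMIs of the gene scaled to a fixed total of UMIs). Just inside it lay 237 cells with exactly 4, in which Csf3 stood at 3214 CPM. A further 112 members had 5 of the genes and 22 had all 6.

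Members were not the deeper cells. Their median was 10542 UMIs, against 11465 for the others, and the medians for cells with 0 to 6 rule genes lay between 10283 and 11514 UMIs. For the comparisons each member was set beside 1 other cell with a UMI total within 10%, which gave 371 matched others with a median of 10540 UMIs. Members then held 4695282 UMIs in all and the matched others 4684643. Among receptor-high WT cells 47 of 3016 met the 4-gene criterion, 1.56% (1.15% to 2.07%). After each cell was thinned to 5000 UMIs the shares were 5.43% of receptor-low cells (228 of 4198) and 0.444% of receptor-high cells (13 of 2927). The hormone-receptor limit had few cells at its edge: 34 cells had 4 to 5 UMIs per 10000, of which 2 met the criterion, and 29 had 5 to 6, of which 3 did.

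Across the 10081 genes with at least 20 UMIs over members and matched others, 1201 (11.9%) were at least 1.5-fold higher in members and 538 (5.34%) at least 1.5-fold lower. The median log2 ratio of all of them was 0.09. These percentages are the background for every list below: a list is described by how many of its compared genes passed 1.5-fold in each direction, with its median log2 ratio. Without the cells described next as non-epithelial, 11.3% of 9845 genes were higher and 5.58% lower. The rule genes and the receptor genes stand in no list.

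The label was checked against epithelial, progenitor and other markers. Epcam and Krt18, which mark luminal epithelium, each had a UMI in 99.2% of members. Of 8 luminal epithelial markers, 1 was at least 1.5-fold higher in members than in matched others and none was as much lower. Among the 17 immune markers, Ptprc, Cd3d, C1qa, C1qb, Csf3r and Cxcr2 had no UMI in any member. This allows up to 0.809% of members with a UMI of each. Other markers of the list were found: its summed level was above 0, the matched others' median, in 10.5% of members. Only 1 of the 17, Cd68, had enough UMIs to be compared. At least 1 UMI of immune, stromal or endothelial markers was present in 88 members (23.7%) and in 740 others (18.4%). A few members were of another kind. At least 10 UMIs of immune, stromal or endothelial markers were present in 7 members (1.89%) and in 26 others (0.647%), and at least 2 in 24 members (6.47%) and 166 others (4.13%). Selp and Fabp4 rested on those cells: Selp, the endothelial P-selectin, was found in 1.08% of members, and 5 cells held 99.5% of the members' UMIs of Fabp4, a fatty acid carrier of endothelium and adipocytes. Without the cells that had at least 2 such UMIs, the log2 ratio of Fabp4 went from 6.42 to -0.49, and Selp had no UMI in the remaining members. Of 5 compared stromal and endothelial markers 4 were at least 1.5-fold higher in members (median log2 ratio 3.17). Without those cells Pecam1 was the 1 left to compare, and at 0.70 it still passed 1.5-fold. With all cells kept, Pecam1 had a UMI in 5.93% of members and 4.04% of matched others. At 5000 UMIs per cell these shares were 2.25% and 2.54%. Of 4 basal keratin and contractile genes 2 were higher (median 1.08), and without those cells none of 3 was. The values below include these cells unless stated. Doublets were called in 11 members (2.97%) and in 1.44% of the others.

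Genes of the NF-kB pathway itself were higher in members. Of 24 compared genes for NF-kB subunits and feedback regulators, 16 were at least 1.5-fold higher and none was as much lower. The median log2 ratio was 0.79, or 0.84 without the non-epithelial cells. Nfkbia, which encodes IkB-alpha, the inhibitor that NF-kB itself induces, stood at 1527 CPM in members and 390 CPM in matched others, a log2 ratio of 1.97 (1.90 to 2.05). It had a UMI in 96.5% of members and in 78.7% of matched others. Tnfaip3, which encodes the ubiquitin-editing inhibitor A20, stood at 36.6 against 6.19 CPM, a log2 ratio of 2.57 (1.99 to 3.19). Nfkbiz, a nuclear IkB protein, stood at 172 against 54.9 CPM (log2 ratio 1.65), and Zc3h12a, the RNase Regnase-1 that degrades cytokine transcripts, at 326 against 120 CPM (1.44). Birc3, a ubiquitin ligase downstream of TNF receptors, stood at 222 against 84.7 CPM (1.39). Subunits differed by less: Nfkb1 had a log2 ratio of 1.10, Rel of 1.25, Relb of 0.84, Nfkb2 of 0.57 and Rela of 0.56. The ratios of Nfkbia, Tnfaip3 and Nfkbiz were above that of every subunit named here. This did not hold for all feedback regulators: the lowest member of the list was Tnip2, at -0.22.

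Chemokine and cytokine genes were higher as well. Of 16 compared genes, 13 were at least 1.5-fold higher and 1, Cxcl15, was at least 1.5-fold lower. The median log2 ratio was 1.52 with or without the non-epithelial cells. Cxcl1, a neutrophil chemokine of the same family as the rule gene Cxcl2, stood at 1106 CPM in members and 79.0 CPM in matched others, a log2 ratio of 3.81 (3.66 to 3.96). Lif, a cytokine that signals through gp130, stood at 200 against 65.5 CPM, a log2 ratio of 1.61 (1.42 to 1.80). Cx3cl1, a membrane-bound chemokine for monocytes, had 224 against 83.9 CPM (1.42), Cxcl16 had 168 against 62.1 CPM (1.43), and Tnf had 60.3 against 18.8 CPM (1.68). The 5 genes Cxcl3, Cxcl10, Ccl2, Ccl7 and Il6 also counted as higher, but over 90% of each gene's UMIs in members lay in 5 cells, and Il6 was no longer higher without the non-epithelial cells. Csf1, the macrophage growth factor, had a log2 ratio of 0.52 and did not pass 1.5-fold. Il1a, Il18, Il33 and Csf2 had no UMI in members or in matched others.

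Shares of cells with a UMI, taken at 5000 UMIs per cell so that depth was equal, give the same genes cell by cell. Cxcl1 was found in 58.9% of 355 members, 14.9% of 355 matched others and 5.26% of 2927 receptor-high cells. Without thinning these shares were 69.0%, 19.9% and 9.05%, at median depths of 10542, 10540 and 9686 UMIs. Zc3h12a was found in 71.5%, 38.6% and 18.0% at 5000 UMIs. Nfkbia was found in 91.0% of members, 62.5% of matched others and 71.6% of receptor-high cells, so it was common everywhere and its difference was mainly one of level. In these comparisons 16 shallower members and 16 shallower matched others were left out.

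Promoters of the rule genes and of leading genes were searched for the short palindrome-like DNA element that NF-kB binds, and the windows that hold it are shown. The motif searched was GGGA, any 2 bases and TTCC, on both strands, in windows from 250 bases before to 50 bases after RefSeq start sites (GRCm38.p6). Of 32851 such windows 1.47% hold it, and 1.63% of the 27025 genes with a window have it in at least 1. In the sequences below capitals mark the matched bases. Cxcl1 (chr5:90890995-90891294, plus strand) and its neighbour Cxcl2 (chr5:90903649-90903948, plus strand) share the same 11-base run, GGGAATTTCCC, in which the motif matches on both strands at an offset of 1 base. It begins 71 bases before the start of Cxcl1 and 97 bases before that of Cxcl2. Across all windows this run was found in 14, and Cxcl3 was the third chemokine gene among them. Nfkbia (chr12:55492598-55492897, minus strand) holds a match that begins 29 bases before its start, and Pglyrp1 (chr7:18884440-18884739, plus strand) one that begins 93 bases before.
Cxcl1: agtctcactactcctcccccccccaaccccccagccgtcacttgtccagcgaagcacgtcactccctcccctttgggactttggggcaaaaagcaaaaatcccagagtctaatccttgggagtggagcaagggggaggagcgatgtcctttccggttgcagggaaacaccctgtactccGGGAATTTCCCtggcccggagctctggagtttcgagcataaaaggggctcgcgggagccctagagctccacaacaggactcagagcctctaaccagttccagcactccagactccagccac
Cxcl2: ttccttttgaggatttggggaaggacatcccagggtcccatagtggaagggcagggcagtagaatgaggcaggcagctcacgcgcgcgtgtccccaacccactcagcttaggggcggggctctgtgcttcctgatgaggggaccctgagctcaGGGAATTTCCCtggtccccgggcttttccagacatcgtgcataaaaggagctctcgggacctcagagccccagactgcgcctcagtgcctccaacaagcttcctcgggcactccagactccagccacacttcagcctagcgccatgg
Nfkbia: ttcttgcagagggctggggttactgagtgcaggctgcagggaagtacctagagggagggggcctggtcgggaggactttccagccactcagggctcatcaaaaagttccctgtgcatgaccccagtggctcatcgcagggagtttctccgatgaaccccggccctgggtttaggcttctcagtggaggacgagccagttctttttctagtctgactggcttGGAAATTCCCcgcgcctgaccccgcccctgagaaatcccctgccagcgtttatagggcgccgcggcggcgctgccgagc
Pglyrp1: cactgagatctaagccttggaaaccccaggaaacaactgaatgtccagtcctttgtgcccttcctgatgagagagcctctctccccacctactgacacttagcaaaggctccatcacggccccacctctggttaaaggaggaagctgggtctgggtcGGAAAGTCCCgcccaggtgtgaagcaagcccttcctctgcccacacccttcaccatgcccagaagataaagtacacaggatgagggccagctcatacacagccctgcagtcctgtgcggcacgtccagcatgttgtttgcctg
By list, 5 of 17 chemokine and cytokine genes with a promoter entry hold the motif (29.4%), as do 4 of 21 NF-kB genes (19.0%), 3 of 14 interferon response genes (21.4%), 1 of 6 basal genes (16.7%), the 1 stress keratin with an entry, none of 13 milk genes and none of 16 immediate early genes. Tnfaip2 and Icam1, the other rule genes with an entry, have no match to these letters in the window. Neither do Selp, Alox12e, Klk10 and Ccrl2 among the highest genes, nor Jdp2, Zc3h12a, Tnfaip3, Birc3, Lif, Tnf and Cx3cl1. Of the 6 highest genes 5 have an entry, and 2 of these hold the motif. A match is a description of the letters and does not show binding. Other forms of the NF-kB element were not searched, so a window without a match may still hold one. A second motif, TGANTCA of the AP-1 type, occurs in 7.81% of the windows and in those of Lif, Tnfaip3 and Selp among the genes searched by name. By gene it occurs in 8.97% of all, in 5 of 17 chemokine and cytokine genes, 4 of 21 NF-kB genes and 5 of 14 interferon response genes. It occurs in 2 of 13 milk genes and none of 16 immediate early genes.

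Other genes at the top of the ranking were secreted or enzymatic. Klk10, a secreted kallikrein-type protease, stood at 369 CPM in members and 80.9 CPM in matched others, a log2 ratio of 2.19 (2.03 to 2.35), with a UMI in 34.2% of members. Pglyrp1, a peptidoglycan recognition protein, stood at 110 against 17.5 CPM (2.65), and Alox12e, an epidermal lipoxygenase, at 54.7 against 5.12 CPM (3.42). Alox12e was concentrated, with 44.4% of its UMIs in members in 5 cells. Jdp2, a repressor of AP-1 type transcription factors, was by contrast widespread: it was found in 77.1% of members and stood at 326 against 90.3 CPM, a log2 ratio of 1.85 (1.70 to 2.01). Pdgfb, a growth factor for pericytes, stood at 184 against 62.1 CPM (1.57). Ccrl2, an atypical chemoattractant receptor, Cpe, a carboxypeptidase, Col4a1, a basement membrane collagen, and Prelp, a matrix proteoglycan, had log2 ratios of 1.74, 2.08, 2.05 and 1.85. Igfbp7 went from 1.81 to 0.87 without the non-epithelial cells.

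Receptors and the signalling around them were moderately higher. Of 19 compared cytokine and pattern receptor genes 10 were at least 1.5-fold higher, none was as much lower, and the median log2 ratio was 0.66. Without the non-epithelial cells 8 of 18 were higher, with a median of 0.51. Ifngr1, a chain of the interferon-gamma receptor, stood at 185 against 96.5 CPM (0.94), while Tnfrsf1a, the main TNF receptor, stood at 120 against 111 CPM (0.12). Of 10 JAK-STAT3 genes 5 were higher and none lower, with a median of 0.66: Pim1, a kinase induced by STAT factors, stood at 423 against 184 CPM (1.20) and Cish, a feedback inhibitor of the same signals, at 79.9 against 29.9 CPM (1.42). Stat3 itself had a log2 ratio of 0.46. Of 15 adhesion, protease and matrix genes 9 were higher and 1 was lower, with a median of 0.96 that went to 0.60 without the non-epithelial cells, where 7 of 13 were higher. Of 8 prostaglandin genes 2 were higher and 1 lower. Ptges, the terminal synthase of prostaglandin E2, stood at 560 against 282 CPM (0.99).

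Acute phase and antimicrobial genes did not move as a block: 3 of 14 were higher, 5 were lower and the median stood at -0.27. Ltf, the iron-binding lactoferrin, stood at 3854 against 2606 CPM, and Lcn2, a siderophore-binding protein, at 9175 against 8570 CPM, a log2 ratio of 0.10. Saa1, a serum amyloid A gene, was lower at 115 against 488 CPM, a log2 ratio of -2.08 (-2.22 to -1.95). Saa2 was lower too, at -1.74, but 88.7% of its UMIs in members lay in 5 cells, and because these copies are near-identical their counts could be split between them. Of 13 interferon response genes 4 were higher and 2 lower (median 0.21), and without the non-epithelial cells 1 was higher and 3 lower (median -0.10). Of 12 MHC class I presentation genes 1 was higher and none lower (median 0.04), and without the non-epithelial cells none was higher. Of 2 MHC class II genes 1 was lower, and of 5 T cell ligand and checkpoint genes 3 were higher and 2 lower, or 3 and 1 without those cells. MHC class I genes thus differed little in level between members and matched others.

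Genes of milk synthesis were lower in members. Of 17 compared milk and lipid secretion genes 11 passed 1.5-fold downward and 1 upward. The median log2 ratio was -0.90, and the list held 3.95% of all UMIs in members against 9.65% in matched others. Csn2, beta-casein, stood at 7243 CPM in members and 23179 CPM in matched others, a log2 ratio of -1.68 (-1.70 to -1.66). Csn1s2a, another casein, stood at 3561 against 14824 CPM (-2.06), Wap, whey acidic protein, at 39.6 against 209 CPM (-2.40), and Spp1, osteopontin, which is secreted into milk, at 8026 against 26079 CPM (-1.70). Csn2 had a UMI in 86.5% of members, 93.8% of matched others and 78.3% of receptor-high cells (76.3%, 90.7% and 58.4% at 5000 UMIs), so a UMI of it in a cell is not read here as expression. Lao1, a milk amino acid oxidase, stood at 37.9 against 219 CPM (-2.53), Cck, the peptide cholecystokinin, at 154 against 447 CPM (-1.54), and Scd1, a fatty acid desaturase, at 268 against 779 CPM (-1.54). Fabp3, a fatty acid carrier, stood at 3.20 against 42.7 CPM (-3.74). The gene of the list that counted as higher, Cd36, had all of its UMIs in members in 5 cells and had no excess without the non-epithelial cells. Mfge8, a milk fat globule protein, stood at 5336 against 4656 CPM, a log2 ratio of 0.20.

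Progenitor markers were divided. Of 8 progenitor markers 3 passed 1.5-fold upward and 2 downward, around a median of 0.12. Aldh1a3, the retinaldehyde dehydrogenase that marks luminal progenitors, stood at 321 against 120 CPM, a log2 ratio of 1.42 (1.28 to 1.56), and Kit, the stem cell factor receptor, at 67.3 against 28.6 CPM (1.23). Elf5, the transcription factor of the alveolar lineage, stood at 240 against 297 CPM (-0.31), and Itgb3, an integrin chain, at 17.0 against 61.1 CPM (-1.84). Cd14, a co-receptor for lipopolysaccharide that also marks these progenitors, stood at 3117 against 2398 CPM (0.38). At 5000 UMIs Aldh1a3 was found in 52.1% of members, 22.0% of matched others and 3.28% of receptor-high cells, and Kit in 31.8%, 14.4% and 0.991%. Of 7 hormone-sensing markers other than the 4 that set the receptor limit, none was higher and 5 were lower, with 0.0210% of UMIs in members and 0.0371% in matched others. Sox9, the gene behind the reporter, stood at 605 against 489 CPM, a log2 ratio of 0.31 (0.23 to 0.39), below 1.5-fold. Vtcn1, an inhibitory B7 family ligand, stood at 12.4 against 18.6 CPM (-0.59, interval -1.09 to -0.09), a direction that was lost when 3 rule genes were enough.

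Immediate early and heat shock genes are induced quickly by many stimuli. The immediate early list held 0.925% of UMIs in members and 0.796% in matched others, and 5 of its 19 genes were higher and 1 lower around a median of 0.31. Fos had a log2 ratio of 0.84 and Junb of 0.45, while Jun stood at -0.13 and Atf3 at -0.44. Of 9 heat shock genes 2 were higher and none lower (median 0.33). When the comparison cells were matched on both UMIs and the immediate early share, the NF-kB median was 1.02 and the chemokine median 1.54. The part of the heat shock genes in these values was not tested. Among the other lists, 2 of 9 Notch genes (median 0.30) and 3 of 11 hypoxia and glycolysis genes (median -0.07) were higher and none lower. Of 12 growth factor and MAPK feedback genes 2 were higher and 1 lower (median 0.27). Over all genes 11.9% were higher, and counts this small are not read as a difference. Of 8 NRF2 targets none was higher and 2 were lower (median -0.41). One of them was Hmox1, haem oxygenase, at 274 against 631 CPM (-1.20). Of 3 stress keratins 2 were higher (1 of 2 without the non-epithelial cells), with a median of 1.0 that was -0.79 when 3 rule genes were enough and negative under 5 other alternatives. The 2 proliferation genes that could be compared did not pass 1.5-fold in either direction.

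The levels differed by degrees with the number of rule genes. That number is the selection itself, so these levels describe the selection and are no separate finding. The following values leave out the non-epithelial cells and cover all receptor-low WT cells. The 2 ends are 1096 cells with 0 rule genes and only 21 cells with all 6. At these ends the summed NF-kB list stood at 1519 and 6749 CPM, Nfkbia at 209 and 2710 CPM, and Cxcl1 at 28.7 and 2970 CPM. The milk list stood at 122773 and 17758 CPM at the same ends. Aldh1a3 stood at 57.1 CPM in cells with none and 392 CPM in cells with all, and Elf5 at 313 and 205 CPM. MHC class I genes stood at 3237 and 3332 CPM.

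**Figure D1:**
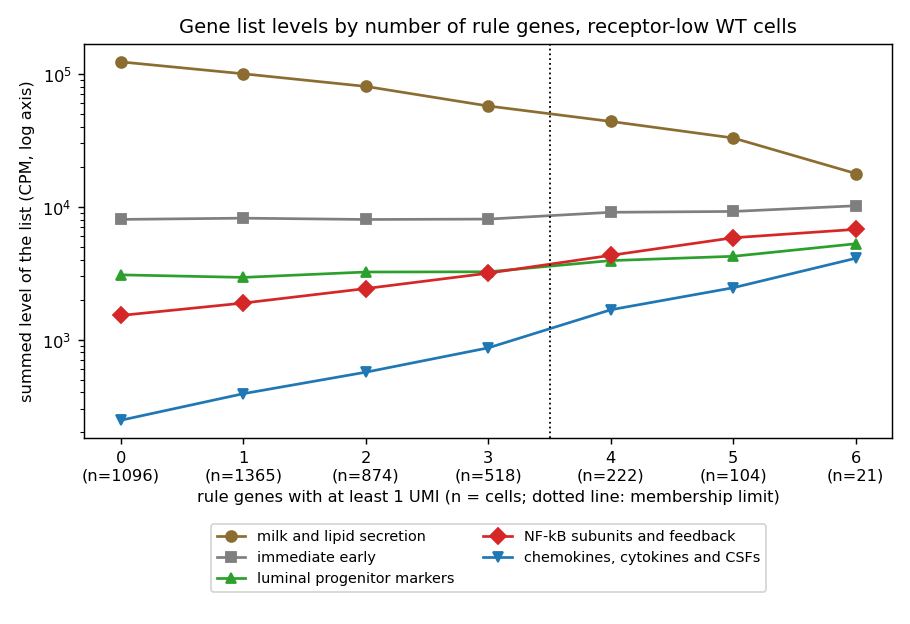
Summed level of 5 gene lists (vertical axis, CPM, log scale) in receptor-low WT cells by the number of rule genes with at least 1 UMI (horizontal axis, with the number of cells), without non-epithelial cells and with the rule genes in no list. The NF-kB list stands at 1519 CPM with 0 rule genes and 6749 CPM with 6, and the milk list at 122773 and 17758 CPM. The horizontal axis is the selection itself.

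Single members differed widely from each other. The NF-kB list had a median of 5041 CPM over members, with quartiles of 3422 and 6896 CPM, and a median of 2109 CPM over matched others. It was above the matched others' median in 94.9% of members and above their 90th percentile in 66.8%. For the chemokine list the medians were 1315 and 254 CPM, and 88.4% of members were above the others' median. The milk list had medians of 16697 and 61844 CPM, 13.7% of members were above the others' median, and the range in members ran from 782 to 249972 CPM. Members were below the matched others' 10th percentile for milk genes in 23.2% of cases and above their 90th in 0.809%. The immediate early list overlapped most, with medians of 8860 and 7764 CPM and 63.1% of members above the others' median.

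**Figure D2:**
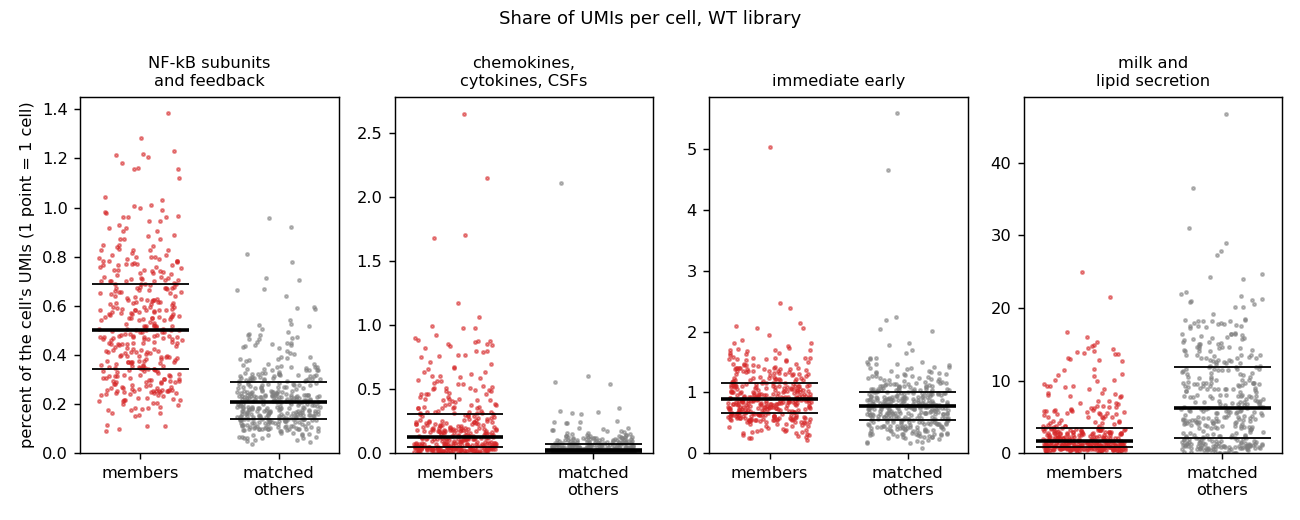
Share of each cell's UMIs (percent, 1 point per cell, linear axes that differ between panels) from 4 gene lists in 371 members and 371 depth-matched other receptor-low WT cells; thick lines are medians and thin lines quartiles over cells. For NF-kB the members' lower quartile of 3422 CPM lies above the others' upper quartile of 2914 CPM, while the immediate early points overlap, with medians of 8860 and 7764 CPM.

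When receptor-low WT cells were clustered without the rule and receptor genes, members were found in several clusters but mostly in 1. Cxcl1 and other genes that were higher in members stayed in the clustering and could shape it. Cluster 2, of 958 cells, was led by Cxcl1, Klk10, Alox12e and Cpe and held 246 members, which were 25.7% of the cluster and 66.3% of all members. Cluster 4, of 651 cells, was led by Edn1, Hspa1a and Lgals3 and held 59 members (9.06% of it). Cluster 1, of 1685 cells and led by Saa2, Saa1, Fam13a and other genes that include Wap, held 35 members (2.08%), and cluster 3, of 952 cells and led by Rsad2, Maff and Dusp5, held 19 (2.0%). Of the small clusters, cluster 5 had 8 members and 44.2% called doublets, and cluster 7, led by genes that include Fabp4 and Selp, had 4 members among 20 cells. Cluster 6 had none among 29 cells, which allows a share of up to 10.3%. At a finer resolution 1 cluster of 527 cells held 220 members (41.7% of the cluster and 59.3% of members), so no cluster at either resolution was made up mainly of members.

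**Figure D3:**
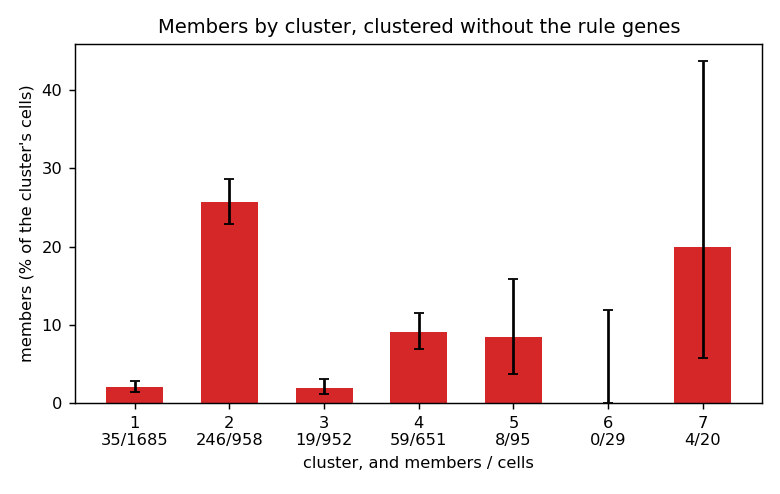
Members as a percentage of the cells of each cluster (bars, with exact 95% binomial intervals for counting error) in receptor-low WT cells clustered without the rule genes; members and cells are printed under each bar. Cluster 2 stands at 25.7%, cluster 4 at 9.06%, and clusters 1 and 3 at 2.08% and 2.0%, while the interval of the 20-cell cluster 7 is wide.

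Within clusters, comparison cells come from the same cluster and are matched on depth. The NF-kB list had a positive median in each of the 4 clusters with at least 15 members, at 0.90, 0.73, 0.33 and 0.62 in clusters 1 to 4. In cluster 1, 16 of 21 compared genes were at least 1.5-fold higher (12.1% of all genes compared there), and in cluster 2, 15 of 24 (6.37%). In cluster 3, 4 of 18 were higher (13.1%) and 1 lower, and in cluster 4, 15 of 23 (11.1%) and 1 lower. Of the chemokine list, 7 of 8 compared genes were higher and 1 lower in cluster 1, and 9 of 10 were higher in cluster 2. In cluster 3, 2 of 5 were higher and 1 lower (median 0.25), and in cluster 4, 5 of 9 were higher. Nfkbia stood at 675 CPM in members and 196 CPM in others of cluster 1, at 1927 and 728 CPM in cluster 2, at 469 and 272 CPM in cluster 3, and at 1341 and 727 CPM in cluster 4. Cxcl1 was higher in cluster 2 (1465 against 110 CPM), cluster 3 (246 against 42.9 CPM) and cluster 4 (1409 against 374 CPM). In cluster 1 it stood at 59.0 CPM in members and at 37.6 CPM over all 1650 others of the cluster, while among the 35 matched others it stood at 160 CPM, of which 82.5% lay in 1 cell. Milk genes differed less within clusters than over all receptor-low cells, with list medians of -0.09, -0.28, -0.10 and -0.47 in clusters 1 to 4. Csn2 in members of clusters 1 and 3 stood at 24293 and 24343 CPM, and in those of clusters 2 and 4 at 2332 and 1278 CPM. Members thus included cells of high and of low casein level. Only the rule and receptor genes were left out of the clustering, so milk genes could shape the clusters. So could Cxcl1, Klk10, NF-kB genes and other genes that were higher in members. The smaller milk differences within clusters, the casein levels by cluster and the share of members in cluster 2 are therefore descriptions and no separate finding. The same holds for the Cxcl1 and NF-kB values within clusters. Aldh1a3 stood at 561 against 537 CPM within cluster 4 and at 364 against 204 CPM within cluster 2.

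**Figure D4:**
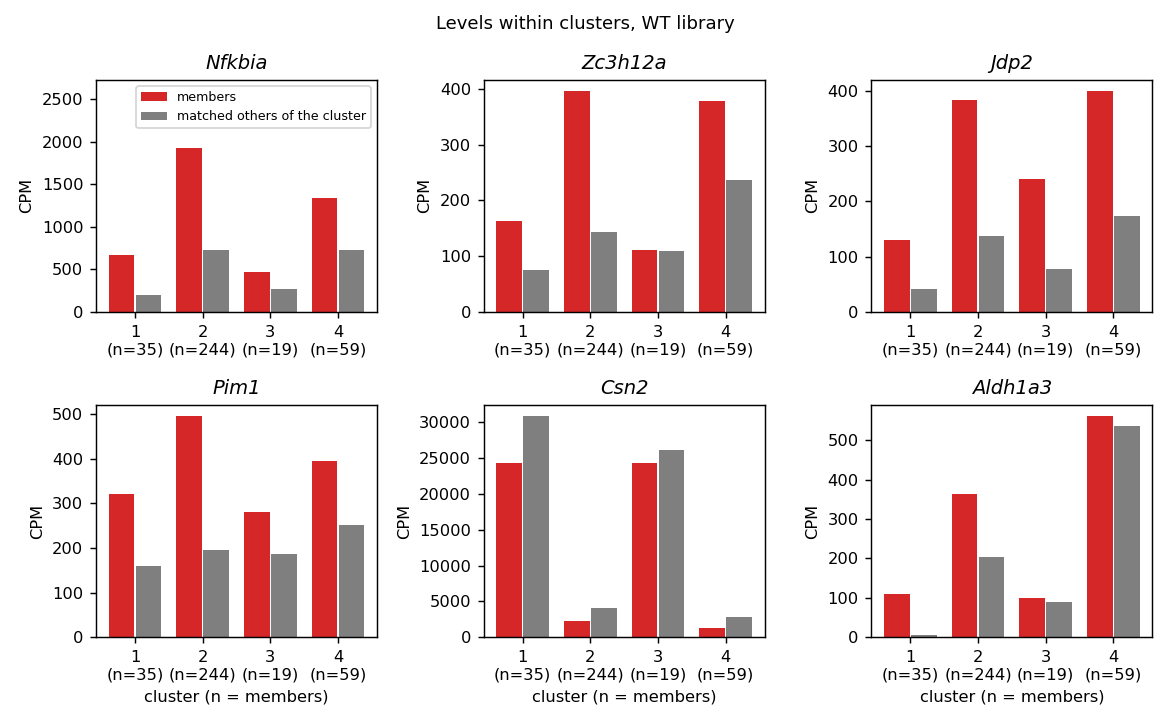
Level (CPM, bars from 0) of 6 genes in members and in depth-matched other cells of the same cluster, for the 4 clusters with at least 15 members; each bar is 1 sum over cells of 1 library, with no replicate error. Nfkbia is higher in members in each of the 4 clusters. Csn2 stands at 24293 CPM in members of cluster 1 and 2332 CPM in those of cluster 2. Only the rule and receptor genes were left out of the clustering, so milk genes and the genes shown could shape it.

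The same criterion was applied to the C3-TAg library, a separate library in which 20 of the 8993 WT barcode sequences recur, 1 of them a member's. It found 211 of 6121 receptor-low cells, 3.45% (3.00% to 3.94%), and 71 of 5662 (1.25%) at 5000 UMIs. The 2 shares cannot be compared as conditions with 1 library each. In C3-TAg the criterion followed depth: members had a median of 13997 UMIs against 9326 for the others, and 17.1% were called doublets against 3.25%. The rule genes were also mixed differently, with Cxcl2 in 80.1% and Adamts4 in 20.4% of C3-TAg members.

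Of 10437 compared genes in C3-TAg, 6.18% were at least 1.5-fold higher in cells that met the rule and 5.16% as much lower. Without called doublets the number higher was 1004, against 645 with them, and without depth matching 1350 were higher and 899 lower. The number of genes compared can change with the setting, so these counts are not read as shares. The NF-kB list had 11 of 24 higher and none lower (median log2 ratio 0.50), the chemokine list 17 of 19 higher and 1 lower (2.56), and the milk list 1 higher and 11 lower of 16 (-1.01). Without the non-epithelial cells the medians of these lists in C3-TAg were 0.58, 1.94 and -1.05. Other lists were mixed there. Of 10 JAK-STAT3 genes 2 were higher and none lower (median 0.14). Of 7 luminal progenitor markers 1 was higher and none lower (-0.21), with 0.167% of UMIs in C3-TAg members and 0.201% in their matched others. Of 18 receptor genes 6 were higher and 1 lower (0.39), and of 13 adhesion, protease and matrix genes 7 were higher and none lower (0.61). Cxcl1 stood at 1295 CPM in C3-TAg members and 219 CPM in their matched others, a log2 ratio of 2.56 (2.45 to 2.67). Nfkbia had a log2 ratio of 0.95, Lif of 1.81, Jdp2 of 1.49 and Pdgfb of 1.53, and Csn2 of -1.0. Of the 15 highest WT genes 13 were also at least 1.5-fold higher in C3-TAg, or 11 of 15 without the non-epithelial cells (where 7.09% of all genes were), and of 10 lowest that could be compared 8 were also lower. Over all genes higher in WT, 21.9% were higher and 3.93% lower in C3-TAg, beside 5.28% and 4.72% of all 9615 genes compared in both. Klk10 was an exception, with 724 against 712 CPM there (log2 ratio 0.02, interval -0.06 to 0.10). Among chemokines of monocytes and T cells in C3-TAg, Ccl2 stood at 176 against 13.1 CPM, Cxcl10 at 267 against 26.5 CPM and Ccl5 at 57.0 against 5.86 CPM. Without the non-epithelial cells Ccl2 stood at 192 against 18.2 CPM, Cxcl10 at 223 against 16.9 CPM and Ccl5 at 44.9 against 11 CPM. In WT members Ccl5 stood at 32.4 against 36.3 CPM with nearly all UMIs in 5 cells. Whether the libraries differ in these ratios was not tested.

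**Figure D5:**
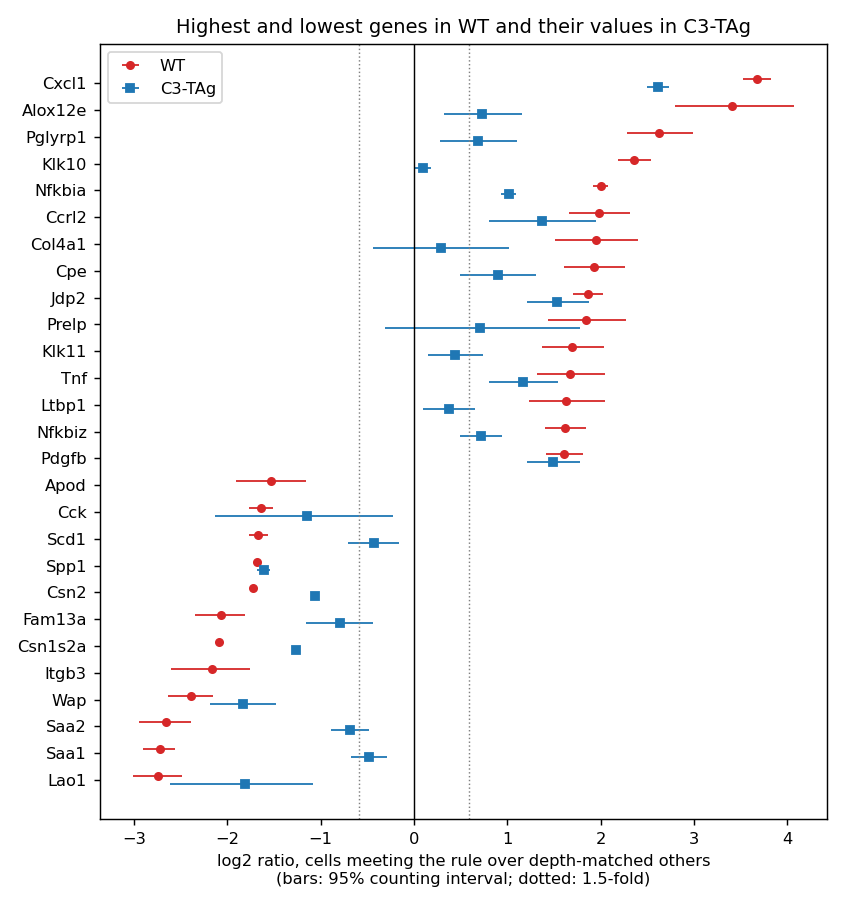
Log2 ratio of cells that met the rule over depth-matched others (horizontal axis; bars are 95% counting intervals, dotted lines mark 1.5-fold) for the 15 highest and 12 lowest WT genes, ranked without non-epithelial cells, in WT (circles) and C3-TAg (squares); genes with under 20 UMIs in C3-TAg have no square. Cxcl1, Nfkbia, Jdp2 and Pdgfb lie right of the 1.5-fold line in both libraries, and Klk10 does so in WT and not in C3-TAg.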

How the data were processed

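Droplet libraries (3-prime chemistry) of sorted mammary luminal cells were analysed, 1 WT and 1 C3-TAg. The deposited UMI counts per gene and barcode come, per the submitters' processing notes, from Cell Ranger 3.1.0 and the mm10 build; barcode calling was not given in the sources used here. Doublets were called with Scrublet and kept, with the values without them tried as an alternative. UMIs were summed over members and over others matched 1 to 1 on UMI total (within 10%), scaled to CPM and compared as ratios with exact conditional 95% intervals that cover counting error only (scipy 1.17.1). A gene was compared with at least 20 UMIs over both groups and called past 1.5-fold; no test was possible. Clusters came from scanpy 1.11.5 (2000 variable genes, 30 components, Leiden resolution 0.5 and 1.0). Named genes were the 15 highest and 12 lowest ratios with at least 50 CPM in either group (without mitochondrial, ribosomal, immunoglobulin and unnamed genes), up to 3 genes at each end of each of 27 lists, Sox9 and Vtcn1; others were named after their values were seen. Members and lists were chosen with earlier results of these data known. Chi3l1 had no row under that symbol, and 1 list is not reported here. The scripts were tested on simulated data.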

Additional observations from a re-analysis of the deposited data

How the results depend on the processing

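No paired analysis was possible because each group is 1 library. The share of members was 3.05% when 5 rule genes were required, 20.7% when 3 were enough and 5.43% at 5000 UMIs. In the main WT comparison 1201 of 10081 genes were higher and 538 lower. Among 6785 genes with at least 100 UMIs, 528 were higher and 170 lower. Among 15021 with at least 1 UMI, 2786 were higher and 2279 lower. Against all other cells without depth matching, 1729 of 12350 were higher and 926 lower. The set of genes compared thus changed with the setting, and the counts with it. In C3-TAg, 1004 genes were higher without called doublets, and 1350 were higher and 899 lower without depth matching. These C3-TAg counts are given without the number of genes compared and are not read as shares. The chemokine median was 1.28 with 5 rule genes and 1.23 with 3, and the cause was not tested. The NF-kB median stayed between 0.67 and 1.16 and the milk median between -1.58 and -0.74 over all the WT alternatives run. Short lists and sparse genes changed sign. The stress keratin median was -0.47 with 5 rule genes, -0.79 with 3, -0.48 at a mitochondrial limit of 5%, -0.50 at 5000 UMIs, -0.47 with 3 matched cells per member and -1.54 when matched on immediate early share. At 5000 UMIs the basal median was -2.06 and the checkpoint median -0.44. Fabp4 stood at -0.49 without non-epithelial cells, Krt16 at -1.07 with 5 rule genes, Slpi at -0.13 at the stricter mitochondrial limit, Ptgs2 at -0.0089 without depth matching and Vtcn1 at 0.016 with 3 rule genes. The comparisons within clusters, the ranking without non-epithelial cells and the C3-TAg values without them were chosen after seeing the data. Genes under 20 UMIs over both groups were below what this depth can compare.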

Other observations

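In cluster 1, led by Saa2 and Saa1, Aldh1a3 stood at 110 CPM in the 35 members, 4.93 CPM in the 35 matched others and 19.4 CPM over all 1650 others of the cluster. Klk10 stood there at 351 CPM in members and 111 CPM over all others, and at 42.8 CPM in the matched others. Lif, the gp130 cytokine, stood at 57.4 CPM in members of cluster 1 and 358 CPM in members of cluster 4, against 17.7 and 169 CPM over all others of those clusters. In cluster 3, led by Rsad2 and Maff, Zc3h12a stood at 112 CPM in members and 109 CPM in matched others, and Lif at 137 and 123 CPM, while Jdp2 stood at 240 against 77.2 CPM. Aldh1a3 stood in cluster 3 at 100.2 CPM in members, 88.7 CPM in matched others and 72.9 CPM over all others, with a log2 ratio of 0.18 (-0.56 to 0.92) against the matched cells. These values rest on 19 members in cluster 3 and 59 in cluster 4, from 1 library, and have no replicate check.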
